A study of Mus musculus with 9 samples.

Results

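Car1 and Car2, the genes of carbonic anhydrases I and II, were followed through single bone marrow cells of mice with or without Pot1a in their mesenchymal lineage. They were chosen by name, as 2 of the 15265 genes in the count tables. The cells came from unsorted marrow of C57BL/6 animals between 2 and 3 weeks old and were profiled with Drop-seq, in which each droplet joins a cell with a bead that carries a DNA barcode and the 3′ ends of its transcripts are counted. There were 5 libraries of NG2-cre/Pot1a wt/wt mice (controls) and 4 of NG2-cre/Pot1a fl/fl mice, with 100 cell barcodes in each. All 9 libraries carried NG2-cre, the recombinase under control of the gene for NG2 (Cspg4), a proteoglycan of mesenchymal and perivascular cells. In the fl/fl mice this Cre removes Pot1a, which encodes a protein that protects telomeres. Libraries are not tied to animals in the labels, and the study names fewer animals than libraries, so some libraries may share an animal and every p-value here reflects only differences from library to library.

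Carbonic anhydrases are zinc enzymes that convert CO2 and water into bicarbonate and a proton, and back. In red cells this reaction lets CO2 from tissues travel as bicarbonate, which leaves the cell through the anion exchanger band 3 (Slc4a1), while the proton is taken up by haemoglobin. Carbonic anhydrase II is the fast cytosolic form and also serves osteoclasts, which use its protons to dissolve bone, whereas carbonic anhydrase I is the slower cytosolic form and is abundant in mature red cells.

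Both genes lie in 1 cluster of family members on mouse chromosome 3 (GRCm38, the build named mm10 in the labels, with positions from GENCODE). Car1 occupies chr3:14766216-14808368 on the minus strand and Car2 chr3:14886273-14900770 on the plus strand. Car3 (chr3:14863512-14872523) lies between them and Car13 (chr3:14641727-14663002) on the far side of Car1. No exon of another annotated gene overlaps an exon of Car1 or Car2. Their protein-coding transcripts share no stretch of 50 bases, and the longest shared run is 15 bases, so reads of 1 gene have little sequence by which they could be counted for the other.

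Of 900 barcodes 899 were kept, with 119459 to 465277 counts per library and a median of 955.5 to 3704 counts per cell. Pot1a wt/wt 2 and 3 share 19 barcodes that hold the same cells, and the pair was also taken as 1 library as an alternative. The main tests count these cells in both libraries, so the 2 are not independent replicates. The shared cells hold 29.3% of the Car2 counts of Pot1a wt/wt 2 and 26.0% of those of Pot1a wt/wt 3. In 3 libraries (Pot1a wt/wt 1 and 5, Pot1a fl/fl 3) cells outside the erythroid clusters held 1.36% to 4.12% globin counts, against 0.403% to 0.522% in the other 6. Pot1a wt/wt 5 and fl/fl 3 were also the shallowest, with 54 and 44 cells of at least 1000 counts.

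The shared cells allow the counts of both tables to be set side by side. Over these 19 cells Car1 gave 21 counts in Pot1a wt/wt 2 and 24 in Pot1a wt/wt 3, with a difference of at most 1 count in any cell. Car1 was counted in 7 and 8 of these cells, 7 of them in both tables, so most of the 14 cells with equal Car1 counts had none in either. Car2 gave 228 and 230 counts, with equal counts in 8 cells and a difference of at most 3 in any cell.

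In all kept cells Car1 gave 606 counts in 149 cells and Car2 4891 counts in 483 cells. Most of both came from 2 clusters of erythroid-like cells, although the clusters had been built without any carbonic anhydrase gene. These 251 cells held 95.2% of the Car1 counts and 92.0% of the Car2 counts. The first, 103 erythroid progenitor-like cells, was led by Mt2 and Mt1 (metallothioneins), Fam132a and Sphk1. It had 0.802% globin counts, and Kit, a receptor of early progenitors, was detected in 19.4% of its cells. The second, 148 erythroblast-like cells, was led by globin genes and Hemgn, had 13.7% globin counts and held no Kit count. Gata1 and Klf1, the erythroid transcription factors, were found in 36.9% and 59.2% of the progenitor-like and in 33.1% and 66.2% of the erythroblast-like cells.

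Over the 9 clusters, Car1 was highest in the erythroid progenitor-like cells, at 807 ± 631 CPM (mean ± SD, n = 9 libraries). CPM gives the counts of a gene relative to all counts of the same cells, scaled to the usual total so that libraries of unlike depth can be compared. Erythroblast-like cells followed at 591 ± 386, and the ranges of these neighbours overlapped. The 29 mesenchymal/osteolineage-like cells came next at 90.2 ± 100.02 (n = 3 libraries with at least 5 such cells). This cluster held only 2 Car1 counts in 2 cells, so its place in the order is uncertain. The cell of Pot1a wt/wt 4 was marked as a doublet by Scrublet, and that of Pot1a fl/fl 3 had 28.8% globin counts. Every further cluster lay at or below 26.4 CPM. Car2 had the other order, with 6783 ± 921 CPM in erythroblast-like and 4039 ± 872 in erythroid progenitor-like cells (n = 9). The lowest progenitor-like library (2627) stood above the highest library of the mesenchymal/osteolineage-like cells (2060), whose mean was 808 ± 1099 and rested on 33 counts and 3 libraries. B lineage-like, granulocyte-like and monocyte/macrophage-like clusters had means of 134 to 338 CPM of Car2, with overlapping ranges. Because these levels had been known from earlier results, they are a description with no test.

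**Figure D1:**
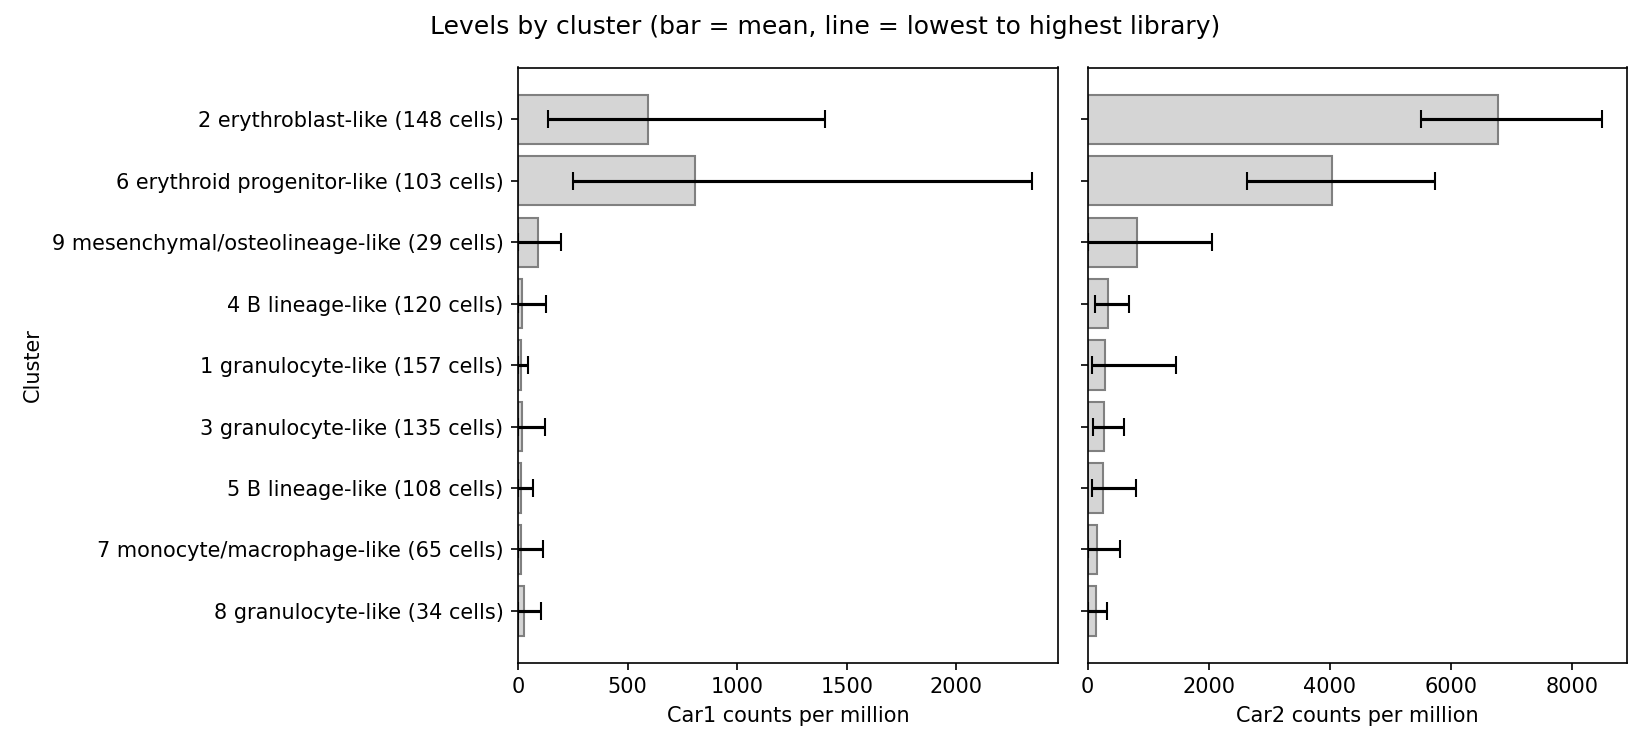
Car1 (left) and Car2 (right) in CPM (horizontal axes) for the 9 clusters (vertical axis). Bars are means over libraries with at least 5 cells of the cluster and lines run from the lowest to the highest library. Erythroblast-like cells are highest for Car2 (6783) and erythroid progenitor-like cells for Car1 (807), while the other clusters lie near 0 for Car1.

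The genes most like them over the 9 clusters were other erythroid genes. Likeness was measured as the Pearson correlation of log2(CPM + 10) over the pooled clusters among 3952 genes with at least 100 counts, a description over 9 points that share libraries. For Car1 the first was Car2 (r = 0.979), followed by Tmem56 (0.978), Smim1 (0.964), Ermap (0.955) and Tspo2 (0.951). For Car2 they were Ermap (0.986), Smim1 (0.982), Abcb4 (0.980), Car1 (0.979) and Samd14 (0.979). Smim1 and Ermap encode blood group antigens of the red cell membrane. Smim1, Ermap and Tspo2 are also among the erythroid markers used to name clusters, so their likeness is no independent support for those names. Ermap went from 636 to 917 CPM between progenitor-like and erythroblast-like cells and Smim1 from 178 to 268, the direction of Car2. Tmem56 had 122 and 119, which differed as little as the pooled Car1 values of 684 and 647.

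Car2 was found in every erythroid-like cell, and Car1 in 131 of the 251. All 103 progenitor-like cells (exact 95% interval 96.5% to 100%) and all 148 erythroblast-like cells (97.5% to 100%) had a Car2 count. Car1 was counted in 63 progenitor-like cells (61.2%, interval 51.1% to 70.6%) and 68 erythroblast-like cells (45.9%, 37.7% to 54.3%). All intervals on shares given here are exact (Clopper-Pearson) and cover counting error only. They count each library's cells, so the 9 erythroid-like cells that Pot1a wt/wt 2 and 3 share enter once for each library. No erythroid-like cell held Car1 without Car2, so in these clusters a Car1 cell was always a cell with both, and the overlap adds nothing to the single shares. Thinned to 1000 counts per cell, to set aside depth, the shares were 40.2% and 33.9% for Car1 and 95.7% and 99.7% for Car2 in progenitor-like and erythroblast-like cells. Car2 of cells without Car1 had no single direction. Progenitor-like cells with 0 Car1 counts had 4260.4 CPM of Car2, against 4694 with 1 to 4 and 3295 with 5 or more. Erythroblast-like cells with 0 had 6648 CPM, against 6371 and 6505. Median Car2 counts in cells without and with Car1 were 17 and 15 in progenitor-like and 13 and 17 in erythroblast-like cells.

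**Figure D2:**
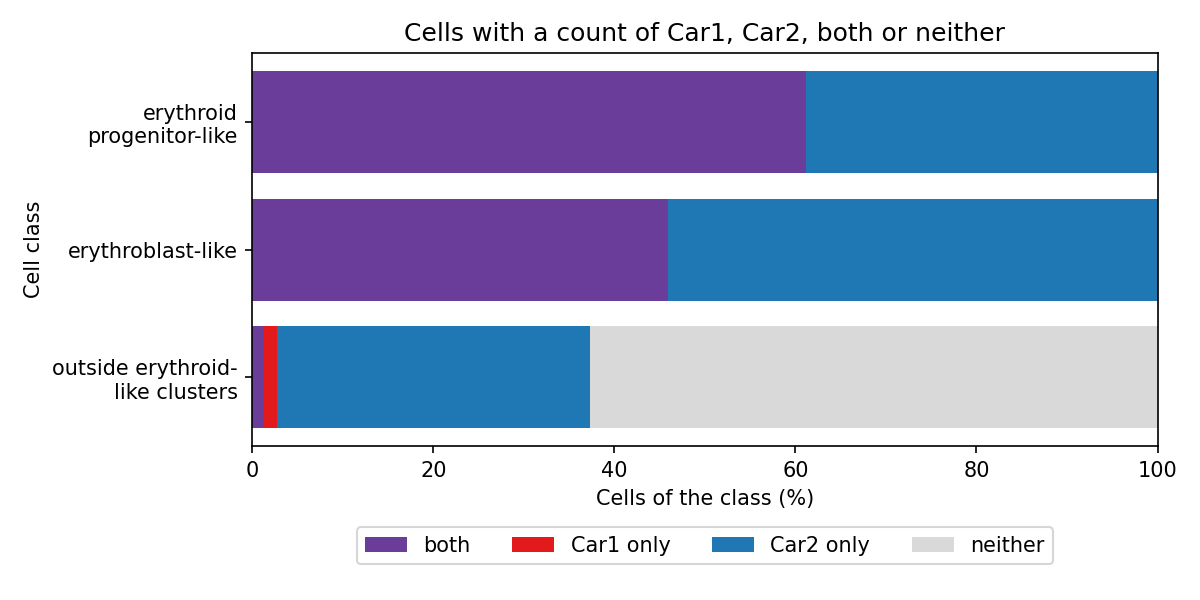
Share of cells (%, horizontal axis) with a count of both genes (purple), Car1 only (red), Car2 only (blue) or neither (grey) in erythroid progenitor-like cells, erythroblast-like cells and the cells outside both clusters (vertical axis). Erythroid bars hold both or Car2 only, while 62.7% of the outside cells hold neither.

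Car1 counts were concentrated in few cells. Cells with 5 or more Car1 counts were 25 of the 103 progenitor-like cells and held 76.7% of the Car1 counts there, and 18 of the 148 erythroblast-like cells with 61.4%. The 25 progenitor-like cells came from all 9 libraries, and had 3295 CPM of Car2 and 0.52% globin counts, against 4694 CPM and 0.896% in the cells with 1 to 4 Car1 counts. Among erythroblast-like cells Car2 had 6505 CPM in the cells with 5 or more Car1 counts and 6371 in those with 1 to 4, so the lower Car2 was not seen in that stage. The 25 progenitor-like cells were also deeper, with a median of 4430 counts against 2851. The cell richest in Car1, a progenitor-like cell of Pot1a wt/wt 2, had 34 Car1 and 36 Car2 counts. A progenitor-like cell of Pot1a fl/fl 2 had 15 Car1 counts beside 1 Car2 count, the reverse of the usual balance. By contrast the median erythroid-like cell of either stage held 15 or 16 Car2 counts.

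With more globin per cell, Car2 was higher and Car1 was not. Since globin takes up a growing part of the counts, levels here are non-globin CPM, in which the 4 globin genes are left out of the total. They are given as a description, because these clusters are ordered by genes of the same cells. Car2 was 4095 ± 888 in progenitor-like and 8135 ± 1748 in erythroblast-like cells (SD, n = 9 libraries) and was higher in the latter in 9 of 9 libraries. Car1 was 818 ± 635 and 678 ± 418, lower in erythroblast-like cells in 5 libraries and higher in 4. A finer clustering placed all but 1 of the erythroid-like cells in 3 groups, the progenitor-like cells (103 cells), cells led by Mgst3, Acp5 and Hebp1 with 7.73% globin counts (94 cells) and cells led by globin genes with 28.2% (53 cells). Car2 went from 4095 ± 888 through 6857 ± 998 to 11289 ± 3431, higher at each step in 9 of 9 libraries. Car1 went from 818 ± 635 through 751 ± 374 to 582 ± 757 and was lower in the last group than in the first in 7 of 9 libraries. In the last group Car1 was found in 12 of 53 cells (22.6%), against 56 of 94 (59.6%) in the middle group. Median depth was 2134 and 2570 counts in these groups, and thinned to 1000 counts the shares were 20.0% and 40.9%.

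Bins by globin share within the same erythroid-like clusters gave the same direction for Car2. Globin share also orders the clusters, so the bins are no independent check. When the erythroid-like cells were divided into 4 bins of 62 or 63 cells by their globin share, Car2 had means of 3798, 4875, 6913 and 10817 non-globin CPM from the lowest to the highest bin (7 to 9 libraries each with at least 3 such cells). Car1 had 957, 675, 952 and 429, with single libraries between 0 and 2049.9 in the last bin. These means come from different sets of libraries. In the 5 libraries that held every bin, Car2 was higher in the last bin than in the first in 5 and higher at every step in 4, and Car1 was lower in the last bin in 4 of them. Over all libraries the mean of Car1 in the third bin was close to that in the first. In the last bin 15 of 63 cells had a Car1 count, against 36 to 41 cells in each of the first 3 bins.

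**Figure D3:**
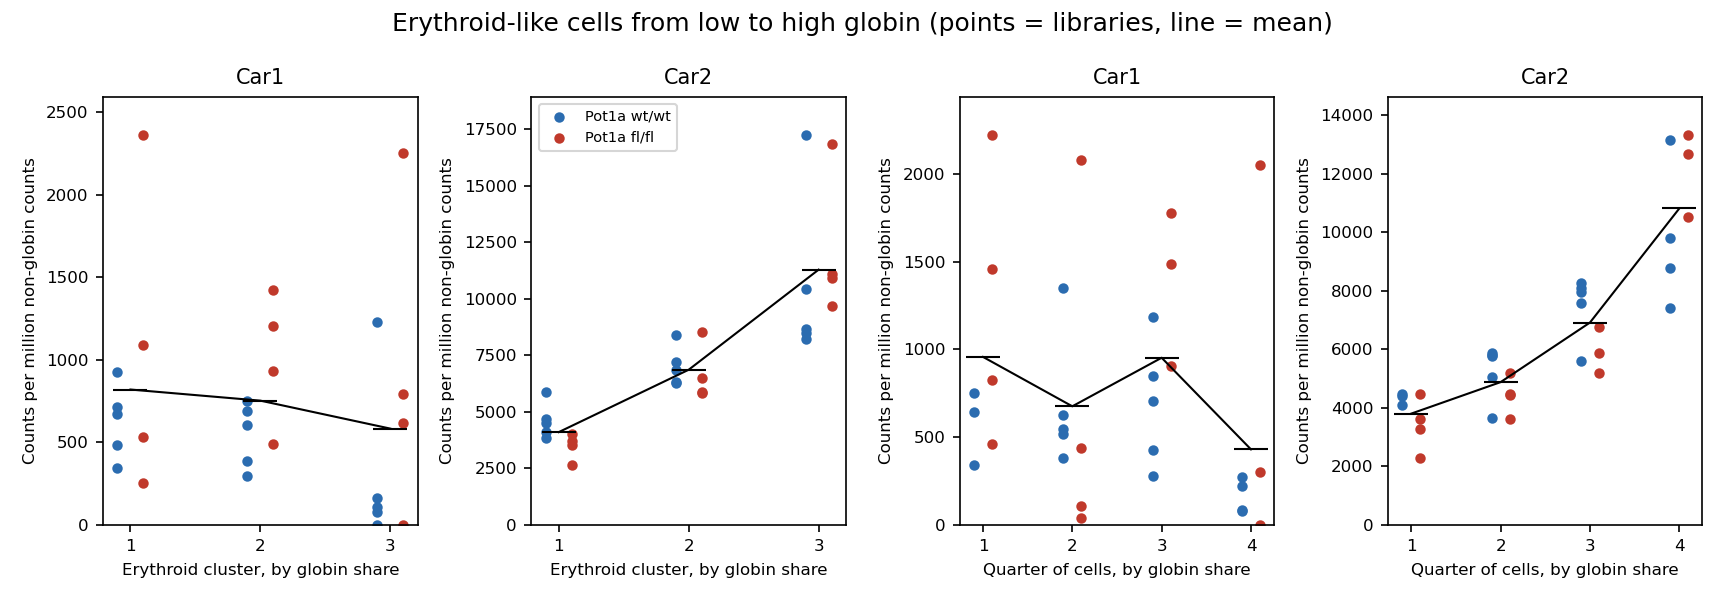
Non-globin CPM (vertical axes) of Car1 and Car2 in erythroid-like cells ordered from low to high globin share, as 3 clusters (left pair) and as 4 bins of cells (right pair). Points are libraries with at least 3 such cells, controls in blue and fl/fl in red, and black lines join the means. Mean Car2 climbs from 4095 to 11289 over the clusters while mean Car1 goes from 818 to 582 with wide spread.

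The balance of the enzymes was tested within libraries, since a ratio of counts from the same cells does not depend on depth. The stage pattern of Car1 was known from earlier results of these data, and genes of the same cells order the stages. The p-values for the stage difference are therefore no independent support for it. Car1 made up 16.6% ± 12.6 of the Car1 and Car2 counts of progenitor-like cells and 8.05% ± 5.11 of those of erythroblast-like cells (SD, n = 9 libraries). Among controls the progenitor-like cells of libraries 1 to 5 had 19.4%, 13.6%, 14.02%, 6.86% and 7.64% Car1, and the erythroblast-like cells 4.08%, 6.75%, 10.95%, 6.54% and 1.61%. Among Pot1a fl/fl libraries 1 to 4 the values were 12.6%, 47.2%, 21.3% and 6.63% in progenitor-like cells and 18.7%, 11.7%, 4.58% and 7.54% in erythroblast-like cells. The percentage was higher in the progenitor-like cells of 7 of 9 libraries, all but Pot1a fl/fl 1 and 4. The mean difference of 8.54 points (SD 12.5) did not pass the threshold (two-sided exact sign-flip permutation test, p = 0.0586, where 0.0039 is the smallest p the signs allow). Without Pot1a fl/fl 2, whose difference was 35.5 points, the mean was 5.17 points (p = 0.117, exact permutation). It was 10.37 points without Pot1a fl/fl 1 (p = 0.0234, exact permutation) and 9.72 without Pot1a fl/fl 4 (p = 0.0469, exact permutation), both past the threshold. With erythroid-like cells divided at the median globin share of their library instead, the difference was 6.91 points (p = 0.0430, exact permutation). Between the genotypes no difference beyond the spread was detected, at 6.33 ± 5.67 points in controls (n = 5) and 11.3 ± 18.8 in Pot1a fl/fl libraries (n = 4, exact permutation p = 0.619).

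**Figure D4:**
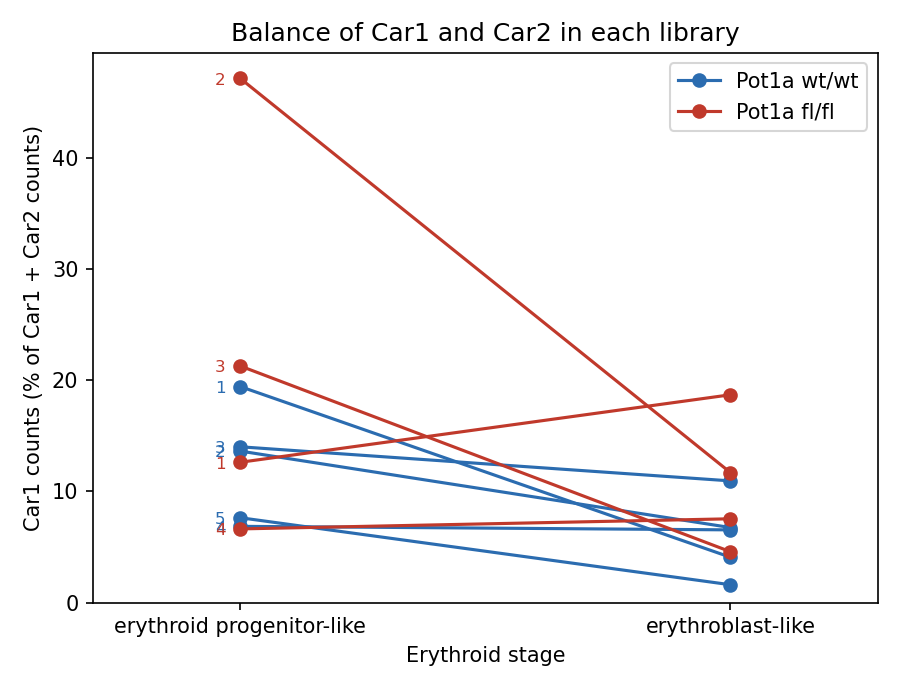
Car1 counts as a percentage of Car1 and Car2 counts (vertical axis) in the erythroid progenitor-like and erythroblast-like cells (horizontal axis) of each library, joined by a line, controls in blue and Pot1a fl/fl in red, with library numbers at the left. Of the 9 lines 7 fall from left to right, the steepest from 47.2% to 11.7% in Pot1a fl/fl 2.

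Outside the erythroid-like clusters both genes were sparse, but Car2 was counted in many cells. Of 648 such cells 232 (35.8%, interval 32.1% to 39.6%) had a Car2 count and 18 (2.78%, 1.65% to 4.35%) a Car1 count, at median depths of 2169.5 counts against 2705 in erythroid-like cells. Both genes were found together in 8 of these cells, Car1 alone in 10 and Car2 alone in 224. The Car2 share was 41.2% in B lineage-like, 33.1% in granulocyte-like and 26.2% in monocyte/macrophage-like cells, or 22.1%, 16.7% and 17.4% at 1000 counts. Car1 was in 2.63%, 2.76% and 1.54% of these cells. Free RNA in droplets can give such counts, and no expression is read from these shares. Pot1a wt/wt 5, with the most globin counts outside the erythroid clusters (4.12%), also had the most Car2 there (942 CPM, 60% of cells), against 121 to 298 CPM in the other 8 libraries. The others high in globin did not stand apart, with 283 CPM in Pot1a wt/wt 1 and 207 in Pot1a fl/fl 3, against 298 in Pot1a wt/wt 3 with 0.436% globin. Per 100 globin counts there were 2.85 Car2 counts and 0.212 Car1 counts outside, against 4.75 and 0.471 in erythroblast-like, 51.5 and 8.53 in progenitor-like, and 7.88 and 1.01 in all erythroid-like cells. The part of free RNA was not tested.

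The cells with most Car1 outside the erythroid clusters were few. Of the 18 cells 15 had 1 count, and 3 had been marked as doublets by Scrublet. A granulocyte-like cell of Pot1a fl/fl 4, not marked, held 9 Car1 and 6 Car2 counts with 0.371% globin. Only 2 outside cells had 10 or more Car2 counts, and the highest had 11.

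Osteoclasts, the other marrow cells known for Car2, formed no cluster of their own. Of 10 osteoclast markers 7 were in the tables. Acp5 (tartrate-resistant acid phosphatase) was higher in erythroblast-like cells (419.98 CPM) than in cells outside the erythroid clusters (33.1 CPM). The other 4 markers with at least 10 counts had the opposite direction. Mmp9 had 10.3 CPM in erythroblast-like cells and 57.7 outside, Ctsk (cathepsin K, the collagen-degrading protease of osteoclasts) 5.15 and 15.4, Itgb3 0 and 22.3, and Nfatc1 0 and 16.6. Atp6v0d2, a subunit of the osteoclast proton pump, gave 4 counts in all. Car2 of osteoclasts could not be described from these cells.

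Other carbonic anhydrases were close to absent. Of 16 family members listed, 6 were in the tables. Car3, a cytosolic form best known from muscle and fat, gave 28 counts in 24 cells, of which 12 lay in a B lineage-like cluster and 6 in erythroid-like cells. Car13, another cytosolic form, gave 6 counts, Car9 5 and Car14 2, the last 2 being membrane-bound enzymes, with no count of either in an erythroid-like cell. Car3 and Car13, the neighbours on chromosome 3, thus had no comparable erythroid counts.

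The partners of the enzymes in gas transport were also erythroid. Of 16 genes of red cell gas, bicarbonate and proton transport with at least 10 counts, 14 were higher in erythroblast-like than in progenitor-like cells, as Car2 was, and 13 were higher in an erythroid stage than outside. Slc4a1, which exports the bicarbonate, went from 94.4 to 1494 CPM, Aqp1, a water channel that also passes CO2, from 254 to 508, and Rhag, a gas channel of the red cell membrane, from 169.9 to 368. Car2, at 4126 and 6526 pooled CPM, was thus already high in cells with little Slc4a1. Among 13 erythroid transcription factors, 9 were higher in erythroblast-like cells, with Klf1 at 306 and 525.6 and Sox6 at 21.0 and 188. Myb (224 and 30.9) and Bcl11a (229 and 82.4) were higher in progenitor-like cells. These pooled levels are a description with no test.

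The genotypes were compared to ask how marrow cells differ when mesenchymal cells lack Pot1a. In whole marrow neither gene passed the threshold over all genes, although Car2 was lower in most Pot1a fl/fl libraries. Car2 stood at 1665, 2541, 2704, 2281 and 3237 CPM in controls 1 to 5 and at 1378, 672, 1900.2 and 1349 in the fl/fl libraries 1 to 4. These groups overlapped only through Pot1a wt/wt 1 and Pot1a fl/fl 3. Means were 2486 ± 577 (SD, n = 5) and 1325 ± 503 (SD, n = 4), and the quasi-likelihood test of edgeR gave a log2 fold of -0.85 with an SE of 0.27 (adjusted p = 0.371, Benjamini-Hochberg). Car1 stood at 143, 290.3, 388, 160.4 and 105 CPM in controls and at 267, 281, 285 and 125 in Pot1a fl/fl libraries. Controls spanned the whole range of the fl/fl values, and the log2 fold was 0.18 ± 0.33 (SE, adjusted p = 0.921, edgeR). Of 4559 genes tested 3 were called, or 0.0658%, and 364, Car2 among them, had an unadjusted p below 0.05, with a median log2 fold over all genes of -0.0017. Without the filter on low counts Car2 passed (log2 fold -0.89, adjusted p = 0.0442, edgeR), where 69 of 15264 genes were called.

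Erythroid-like cells also made up a smaller share of cells on average in the Pot1a fl/fl libraries, where whole-marrow Car2 was lower on average. With 100 barcodes in each library, only shares are known and not numbers of cells in the marrow. Erythroid-like cells were 29%, 35%, 42%, 35.4% and 25% of the kept cells of controls 1 to 5, and 24%, 14%, 28% and 19% of those of Pot1a fl/fl 1 to 4. Single libraries did not all follow this, and its part in the Car2 difference was not tested. Pot1a wt/wt 5 had the lowest share of the controls and the highest Car2 (3237 CPM). Pot1a fl/fl 1 and 3 had shares close to it but 1378 and 1900 CPM. The share of granulocyte-like cells went the other way, at 30.2% ± 4.95 in controls (SD, n = 5) and 43.75% ± 10.8 in Pot1a fl/fl libraries (SD, n = 4). A smaller share of a cell type and less RNA per cell cannot be told apart in the whole-marrow sums. The erythroid-like cells were therefore also tested alone. There Car2 was 4908, 5286, 4844, 5425 and 7266 CPM in controls and 5118, 3876, 5638 and 5011 in Pot1a fl/fl libraries, values that lay among each other. Their log2 fold was -0.17 ± 0.24 (SE, adjusted p = 0.999, edgeR), and 0.06 in erythroblast-like cells alone (adjusted p = 0.999, edgeR). By stage, Car2 was 6685 ± 1099 CPM in the erythroblast-like cells of controls (SD, n = 5) and 6904 ± 784 in those of Pot1a fl/fl libraries (SD, n = 4). In progenitor-like cells it was lower in Pot1a fl/fl libraries, at 3436 ± 567.9 against 4522 ± 789 CPM, and their highest library (3939) lay above the lowest control (3623). That stage was not tested by genotype, since too few fl/fl libraries held 10 such cells.

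**Figure D5:**
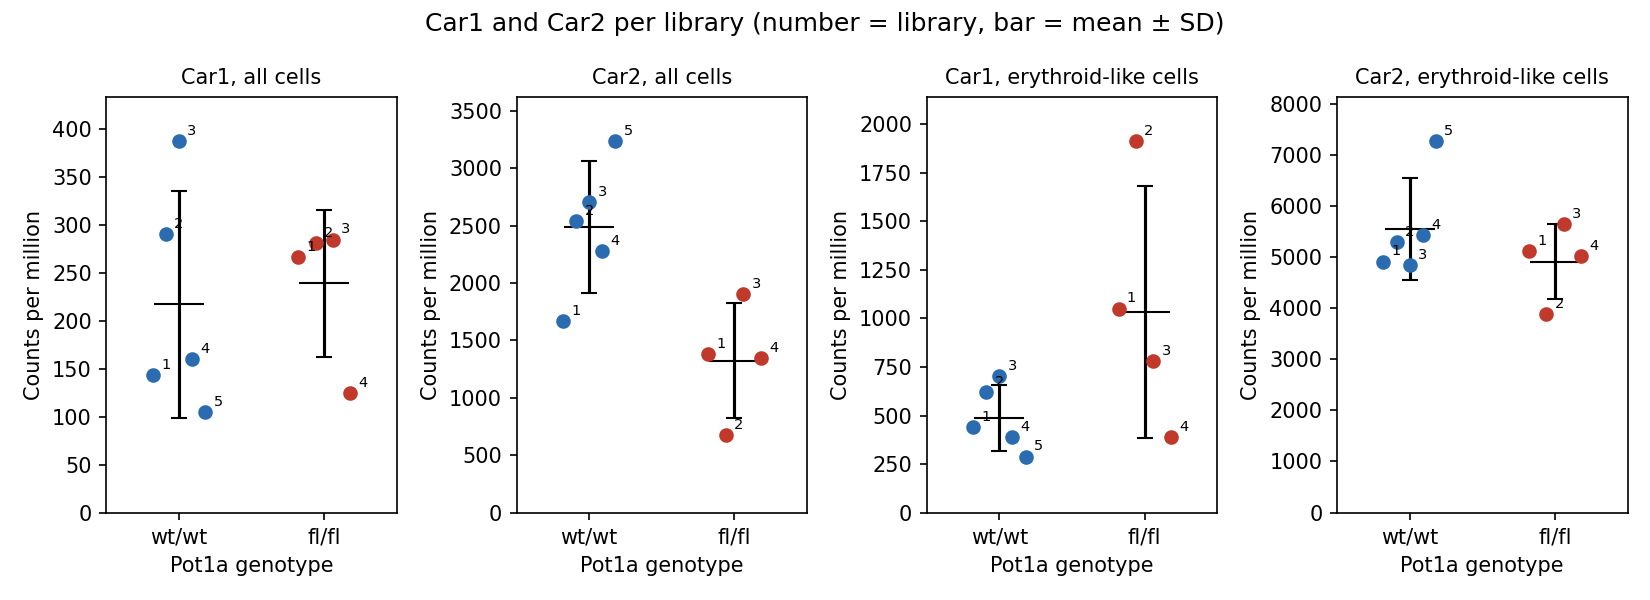
CPM (vertical axes) of Car1 and Car2 in all kept cells and in erythroid-like cells of each library, with 5 controls in blue and 4 Pot1a fl/fl libraries in red. Points are numbered by library and bars are mean ± SD. Car2 in all cells averages 2486 and 1325, whereas Car1 in erythroid-like cells averages 488 and 1033 with 1 fl/fl library at 1914.

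Within erythroid-like cells Car1 had a positive log2 fold that did not pass the threshold, and 1 library set much of its size. It stood at 439, 621, 703, 390.2 and 288 CPM in controls and at 1051, 1914, 779 and 389 in Pot1a fl/fl libraries. Pot1a fl/fl 1, 2 and 3 lay above every control, and Pot1a fl/fl 4 among the lowest. Means were 488 ± 170.2 (SD, n = 5) and 1033 ± 647 (SD, n = 4), and edgeR gave a log2 fold of 1.06 with an SE of 0.36 (adjusted p = 0.999). Here edgeR called 0 of 1690 genes (0%), with 52 at an unadjusted p below 0.05, Car1 among them, and DESeq2 called 0, with 34. Without Pot1a fl/fl 2, which had 14 erythroid-like cells, the log2 fold was 0.59 (adjusted p = 0.999, edgeR), and without Pot1a fl/fl 4 it was 1.37 (adjusted p = 0.673, edgeR). By stage, Car1 was 614 ± 208 and 1048 ± 930 CPM in the progenitor-like cells of controls (n = 5) and Pot1a fl/fl libraries (n = 4), and 416 ± 246 and 809 ± 450.5 in their erythroblast-like cells. The progenitor-like cells of Pot1a fl/fl 2 had 2346 CPM, from 8 cells that all held Car1. In erythroblast-like cells alone the log2 fold was 0.99 (adjusted p = 0.999, edgeR), while progenitor-like cells were too few for a test of their own.

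The balance of the enzymes between the genotypes did not pass the threshold either. Car1 was 7.91%, 10.3%, 12.5%, 6.57% and 3.13% of the Car1 and Car2 counts of all cells in controls 1 to 5, and 16.2%, 29.5%, 13.03% and 8.48% in the 4 fl/fl libraries. All fl/fl libraries but Pot1a fl/fl 4 lay above every control. Means of 8.08% ± 3.58 (SD, n = 5) and 16.8% ± 9.03 (SD, n = 4) differed by 8.72 points, with a 95% interval from -0.00918 to 19.9 (two-sided exact permutation p = 0.0556, where 0.0079 is the smallest p the splits allow). Leaving out Pot1a fl/fl 2 gave 4.49 points (exact permutation p = 0.143), and leaving out Pot1a fl/fl 4 gave 11.49 (exact permutation p = 0.0179). Within the library sets by globin share given above, Pot1a fl/fl 3 (13.03%) lay above Pot1a wt/wt 1 and 5, and the other 3 fl/fl libraries averaged 18.1% against 9.79% in their 3 controls (8.01 points, permutation within sets, exact p = 0.0833).

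The shares of cells were compared as well. Thinned to 1000 counts, Car2 was found in 48.9%, 43.0%, 51.8%, 44.8% and 70.8% of the cells of controls 1 to 5 and in 31.7%, 23.3%, 45.4% and 35.6% of those of Pot1a fl/fl 1 to 4. This was 51.9% ± 11.1 (n = 5) against 34.0% ± 9.18 (n = 4), lower by 17.9 points (95% interval of fl/fl minus wt/wt -35.2 to -2.06), and did not pass after adjustment over 3 shares (two-sided exact permutation p = 0.0397, adjusted p = 0.119). Thinned to 500 counts per cell, which keeps more cells of the shallow libraries, fl/fl minus wt/wt was -16.5 points and passed (exact permutation p = 0.0079, adjusted p = 0.0238). Not thinned, 60.9% ± 7.53 and 44.8% ± 8.14 of cells held Car2 (exact permutation p = 0.0317, adjusted p = 0.0952). These shares cover every cell with a Car2 count, also those outside the erythroid clusters, where the share thinned to 1000 counts was 25.2% ± 17.2 for controls and 16.9% ± 6.29 for the fl/fl libraries. They also follow the share of erythroid-like cells, 33.3% ± 6.52 and 21.25% ± 6.08, and the part of each in the difference was not tested. For Car1 the shares were 11.8% ± 6.01 and 12.0% ± 5.80 (exact permutation p = 0.937, adjusted p = 0.937, interval -9.30 to 10.1 points), and for both genes together 11.4% ± 5.78 and 9.97% ± 4.63 (exact permutation p = 0.714, adjusted p = 0.937, interval -10.4 to 6.58). With the library sets in the fit, the Car2 log2 fold in whole marrow was -0.83 (adjusted p = 0.115, edgeR). Among the 6 libraries low in globin outside the erythroid clusters, the 3 controls had 2281 to 2704 CPM of Car2 and the 3 fl/fl libraries 672 to 1378. In the other set Pot1a fl/fl 3 (1900 CPM) lay between Pot1a wt/wt 1 (1665) and 5 (3237). These sets were formed after seeing the data, and the low set leaves out the libraries through which the genotypes overlapped.

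Genes of the same pathways were set beside them. Of 13 tested genes of red cell gas, bicarbonate and proton transport, 13 had a negative log2 fold in whole marrow, 0 passed the threshold with edgeR and 3 had an unadjusted p below 0.05, against 7.98% of all genes tested, with a median of -0.69 from Hbb-bt (-0.91) to Bsg (-0.27). Most genes of this list were higher in an erythroid stage than outside. Erythroid-like cells made up a smaller share of cells on average in Pot1a fl/fl libraries, and their part in these folds was not tested. Among the erythroid transcription factors 7 of 10 were negative, 0 passed and the median was -0.14, with Tal1 lowest (-1.17) and Lyl1 highest (0.43). In erythroid-like cells the medians were -0.26 over 11 genes (5 positive, 6 negative) and 0.15 over 7 (5 positive, 2 negative), and 0 passed. The highest log2 folds there were 0.16 for Aqp1 and 0.29 for Bcl11a, against 1.06 for Car1. The median over all genes tested there was -0.01.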

How the data were processed

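Whole bone marrow cells of 5 Pot1a wt/wt and 4 Pot1a fl/fl libraries were analysed from the deposited tables of whole-number counts per gene and barcode. Per the labels, the authors sequenced on a NextSeq 500, aligned reads to mm10 with STAR and made the counts with the Drop-seq software. Not given in the sources used here are versions, gene annotation and how 100 barcodes per library were chosen. The study's methods call the values read counts and do not say whether reads of 1 molecule were merged. Columns of samples that went unused numbered 0.

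Car1, Car2 and all gene lists were chosen with earlier results of these data known. Barcodes with at least 200 counts and at most 25% mitochondrial counts were kept. Seurat 5.3.0 (R 4.3.3) clustered the cells (carbonic anhydrase genes left out, anchor integration, 2000 variable genes, 20 components, resolution 1, and 1.5 for finer stages) and clusters were named by the class with most markers, at least 3, among the 50 genes of highest fold found in at least 20% of cells. Doublets marked by Scrublet (39, scanpy 1.11.5) stayed in. For each library, counts of all kept cells or of erythroid-like cells (at least 10) were added up for edgeR 4.0.16, by its quasi-likelihood test with TMM scaling, the filterByExpr filter and a Benjamini-Hochberg threshold of 0.05, and DESeq2 1.42.0 was an alternative. Shares and percentages were compared by exact permutation of libraries. Thinning gives the expected share when 1000 counts are drawn per cell and leaves out shallower cells (447 control and 342 Pot1a fl/fl cells remained). Named genes were Car1 and Car2, the 5 genes most like each over clusters, family members, and list members including those of highest and lowest fold. The library sets were formed after seeing the data, from the globin share outside erythroid-like cells (above or below 1%). The tests were tested on simulated data. Leaving out each library, other filters, clusterings, thinning and scaling were alternatives.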

Additional observations from a re-analysis of the deposited data

Results flagged for a closer look

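Of 54 groups of 4 or 5 libraries examined, 2 held a library far from the others, and chance marks about 1 group in 20. In whole marrow, Car1 in Pot1a fl/fl 4 was 125 CPM, below the 267 to 285 CPM of the other 3 fl/fl libraries. In erythroid-like cells, Car2 in Pot1a wt/wt 5 was 7266 CPM, above the 4844 to 5425 CPM of the other 4 controls, and this library was among the shallowest and had 15.05% globin counts in these cells.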

How the results depend on the processing

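Of 202 alternative values, 170 kept their direction and their side of the threshold, or stayed close to the count of genes called. The share of cells with Car1, whose genotype difference was 0.19 points, changed sign without thinning (-3.28), with a replicate block (-1.03) and when single libraries were left out (-2.26 to 2.68). The share with both genes ranged from -3.02 to 0.89 points when single libraries were left out. The share with Car2 passed the threshold at 500 counts (-16.5 points) and without doublets (-18.4 points). Car1 as a percentage of both genes, by genotype, passed without doublets (9.71 points) and without Pot1a fl/fl 4, and leaving out single libraries gave 4.49 to 11.49 points. The stage difference of that percentage passed with every barcode kept (10.2 points), without doublets (8.66), without integration (12.1), with carbonic anhydrase genes kept in clustering (10.38) and divided at the median globin share (6.91), and without Pot1a fl/fl 1 or 4, and leaving out single libraries gave 5.17 to 10.37 points. Since the stage pattern was known beforehand, these passes are no independent support for it. The log2 fold of Car2 passed in whole marrow without the filter (-0.89) and was 0.0595 in erythroblast-like cells alone. With Pot1a wt/wt 2 and 3 as 1 library, the Car2 share differed by -18.7 points (exact permutation p = 0.0571, adjusted p = 0.171). The stage difference was then 8.89 points (exact permutation p = 0.109), and the whole-marrow Car2 log2 fold -0.83 (adjusted p = 0.654, edgeR). Car1 as a percentage of both genes then differed by 9.41 points between genotypes (exact permutation p = 0.0571). None of these passed. Genes called in whole marrow were 3, but 6 with DESeq2, 69 without the filter, 1 with Pot1a wt/wt 2 and 3 as 1 library and 1 to 3 with single libraries left out. In erythroid-like cells they were 0, but 5 without the filter and 0 to 1 with single libraries left out. The causes were not tested. The labels state no pairing by library number. Correlations of same-numbered libraries ran from -0.161 to 0.150, which cannot exclude a pairing with so few libraries. With the replicate block the log2 fold of Car2 in whole marrow was -0.78, that of Car1 in erythroid-like cells 0.83, and neither passed. With the block 2 genes were called in whole marrow. A separate test of progenitor-like cells was not run, because too few fl/fl libraries held 10 such cells.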
